A study of Mus musculus with 11 samples.

Results

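The genes described here encode alpha1 subunits of voltage-gated calcium channels, the proteins that form the pore through which calcium enters a depolarised cell. They are the 8 genes Cacna1a, Cacna1b, Cacna1c, Cacna1d, Cacna1e, Cacna1g, Cacna1h and Cacna1i, named by a rule on gene identity that uses no measured value, and matched by Ensembl identifier among 47069 genes counted in mouse retina. Controls labelled wild type and Brn3b-Kir2.1 mice were sampled on postnatal day 4 (P4) and day 8 (P8), in a study that by its title concerned retinal activity and the wiring of visual axons. Brn3b-Kir2.1 mice carry a transgene in which a CAG promoter, blocked by a floxed STOP cassette, drives human Kir2.1 fused to eYFP, and a Brn3b-cre allele removes the block in cells that have used Brn3b, which are mainly retinal ganglion cells. Kir2.1 is an inwardly rectifying potassium channel that holds the membrane at a negative potential. All groups are labelled C57BL/6. The 11 libraries were 2 of wild type P4 and 3 each of Kir2.1 P4, wild type P8 and Kir2.1 P8. The labels do not say that libraries came from separate animals, so p-values measure the spread between these samples, which may be technical.

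The labels differ on 3 points. The later groups are P8 in their age field but P11 in the protocol for RNA extraction. The controls are wild type in their genotype field but Brn3b-cre mice in that protocol, so whether the controls carry Cre too is not settled by the labels. The source field names ganglion cells, whereas the protocol describes enzymatic dissociation of whole retinas with no sorting. "Wild type" and "P8" stand here for the groups as their titles and fields name them.

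Calcium channels fall into high-voltage-activated classes, which need strong depolarisation to open, and the low-voltage-activated T-type class, which opens near the resting potential. L-type channels (Cacna1c and Cacna1d) pass long-lasting currents and couple depolarisation to gene expression and, in some neurons, to transmitter release. P/Q-type (Cacna1a), N-type (Cacna1b) and R-type (Cacna1e) channels supply calcium for transmitter release at conventional synapses. T-type channels (Cacna1g, Cacna1h and Cacna1i) support burst firing and pacemaking. In the developing retina, waves of spontaneous depolarisation travel between starburst amacrine cells and ganglion cells before vision begins, and calcium entry accompanies each wave. Photoreceptors and bipolar cells release transmitter at ribbon synapses through L-type channels, chiefly that of Cacna1f.

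All 8 genes passed the filter on low counts, and a gene's count in a library lay between 420 and 5147. Libraries held 9362215 to 12478838 counts in genes. Kir2.1 P8 replicate 2 had the fewest, with 31325 genes detected against 22609 to 24591 in the other libraries, and 69.4% of its uniquely aligned records lay in no gene, against 57.0% to 62.4%. Levels are TMM-scaled CPM, each library's counts divided by its scaled total, a scale that does not correct for gene length. Unless another tool is named, p-values come from the edgeR quasi-likelihood test and adjusted p-values are Benjamini-Hochberg values over the 18188 genes tested, called at 0.05. RNA from a whole tissue cannot tell fewer cells of a type from less RNA per cell. The counted features are mouse genes and the transgene is a human cDNA, so the counts give no check of the genotype labels.

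Markers of the labelled tissue were present in every library, and markers of many cell types varied with age and between libraries of a group. All 9 ganglion cell markers listed (among them Pou4f2, Rbpms and Thy1) had counts in all libraries, and their summed level was 705 to 1112 CPM in wild type P4, 178 to 556 in Kir2.1 P4, 71.9 to 205 in wild type P8 and 102 to 148 in Kir2.1 P8. Summed markers of 6 rod genes were 148 to 850, 321 to 516, 535 to 5019 and 4471 to 4853 CPM in the same order of groups, and those of 6 dividing-cell genes were 874 to 2407, 1972 to 2525, 76.9 to 91.3 and 94.1 to 130.1. Rod, ganglion, horizontal, Mueller glia, dividing, vascular and microglia lists had no gene at 0 in any library. At most 1 of 6 cone genes was at 0 in 3 libraries, 2 of 6 bipolar genes in 2 libraries and 1 of 8 amacrine genes in 1 library. Libraries of 1 group differed on these sums in every group. The 3 wild-type P8 libraries were spread widely, with 535, 2154 and 5019 CPM of rod, 182, 426 and 804 of bipolar, and 3023, 2074 and 1070 of amacrine markers in replicates 1, 2 and 3. Replicate 1 had the highest amacrine sum of the 11 libraries and the lowest rod sum at P8. Kir2.1 P8 replicate 2 had 890 CPM of amacrine markers against 1500.2 and 1577 in the other Kir2.1 P8 libraries. Wild-type P4 replicate 2 had 874 CPM of dividing-cell and 137 of bipolar markers, against 1972 to 2525 and 2.05 to 3.99 in the other P4 libraries. Kir2.1 P4 replicate 2 had 178 CPM of ganglion markers against 517 and 556 in the other Kir2.1 P4 libraries. The part of these differences in the results that follow was not tested. Wild-type P8 replicate 3 was the lowest wild-type P8 library for 8 of 8 subunits, Kir2.1 P4 replicate 2 was the lowest of its group for 7 of 8, Kir2.1 P8 replicate 2 was the lowest of its group for 5 of 8, and wild-type P4 replicate 2 exceeded replicate 1 for 7 of 8.

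By GENCODE M21 (GRCm38), all 8 are protein-coding. Cacna1c (ENSMUSG00000051331) lies on chromosome 6 from 118587240 to 119196418 on the minus strand. Cacna1d (ENSMUSG00000015968) lies on chromosome 14 from 30039939 to 30491455, minus. Cacna1a (ENSMUSG00000034656) lies on chromosome 8 from 84388440 to 84640246, plus. Cacna1b (ENSMUSG00000004113) lies on chromosome 2 from 24603887 to 24763152, minus. Cacna1e (ENSMUSG00000004110) lies on chromosome 1 from 154390731 to 154884501, minus. The T-type genes are Cacna1g (ENSMUSG00000020866; chromosome 11, 94408391 to 94474198, minus), Cacna1h (ENSMUSG00000024112; chromosome 17, 25374285 to 25433783, minus) and Cacna1i (ENSMUSG00000022416; chromosome 15, 80287238 to 80398279, plus). The genes are long, from 59.5 kb for Cacna1h to 609 kb for Cacna1c, while their exons together span 9.76 kb in Cacna1h and 25.2 kb in Cacna1e. Exons overlap a gene on the other strand over 589 bases in Cacna1d (Chdh), 435 in Cacna1a (Gm16183) and 158 in Cacna1h (Tpsg1). The strand setting of the counting is not stated, so reads in those stretches cannot be told apart.

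Start regions were read from RefSeq (GRCm38.p6), which matched 5 of the 8 genes with 8 windows of 300 bases, 250 before a start and 50 after it. The 250 bases before the start are printed for the 4 windows in which they lie outside annotated exons. Capitals mark matches, on either strand, to 5 motifs. The GC box was searched as GGGCGG and the TATA box as TATAAA. The CCAAT box was searched by the letters of its name. The cyclic AMP response element was searched as TGACGTCA, and its half-site, which the full element contains, as TGACG. The windows are of Cacna1b (chr2:24763153-24763402, minus strand), Cacna1d at a start inside the gene (chr14:30353487-30353736, minus strand), Cacna1c at a start inside the gene (chr6:118757975-118758224, minus strand) and Cacna1i (chr15:80286988-80287237, plus strand).
Cacna1b: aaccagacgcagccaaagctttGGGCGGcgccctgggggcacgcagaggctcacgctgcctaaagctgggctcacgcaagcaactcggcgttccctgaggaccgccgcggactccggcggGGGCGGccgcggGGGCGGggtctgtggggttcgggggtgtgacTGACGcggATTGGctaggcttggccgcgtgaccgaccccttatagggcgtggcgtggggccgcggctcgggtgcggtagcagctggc
Cacna1d: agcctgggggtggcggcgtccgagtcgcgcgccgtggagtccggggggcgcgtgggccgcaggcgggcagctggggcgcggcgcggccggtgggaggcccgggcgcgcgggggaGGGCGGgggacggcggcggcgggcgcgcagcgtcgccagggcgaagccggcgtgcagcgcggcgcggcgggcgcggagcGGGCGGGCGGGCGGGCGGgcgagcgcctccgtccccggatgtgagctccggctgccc
Cacna1c: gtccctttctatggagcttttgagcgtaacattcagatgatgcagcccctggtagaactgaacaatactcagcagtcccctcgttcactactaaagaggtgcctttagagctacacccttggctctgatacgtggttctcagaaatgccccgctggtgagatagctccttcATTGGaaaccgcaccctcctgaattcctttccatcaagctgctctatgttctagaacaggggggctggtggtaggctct
Cacna1i: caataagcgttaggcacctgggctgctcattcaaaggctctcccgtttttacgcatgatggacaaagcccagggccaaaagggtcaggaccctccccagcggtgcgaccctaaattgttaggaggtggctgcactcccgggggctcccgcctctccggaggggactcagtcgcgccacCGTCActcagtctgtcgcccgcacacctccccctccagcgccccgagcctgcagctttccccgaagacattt
These stretches were 72.0%, 86.4%, 50.4% and 62.4% G or C, and their full windows of 300 bases 72.3%, 87.3%, 51.3% and 62.7%. The median over 32817 RefSeq windows of 300 bases was 52.7%, with a median of 7 CpG dinucleotides, against 35 in the full Cacna1b window and 63 in the full Cacna1d window. Cacna1b held 3 GC boxes and Cacna1d 6 over the 300 bases. GC boxes were found in 35.6% of all windows, TATA boxes in 13.6%, CCAAT in 37.4%, half-sites in 20.8% and the full element in 1.8%. The Cacna1b window also held 1 CCAAT match and 1 half-site, and none of the 8 windows held TGACGTCA. Windows of the same gene differed widely too. A Cacna1c window not printed here was 81.3% G or C over 300 bases, with 57 CpG and 6 GC boxes. A Cacna1d window not printed here was 40.3% G or C, with 4 CpG, 3 TATA box matches and no GC box. The only RefSeq window of Cacna1e starts 158.6 kb inside the annotated gene, lies wholly in annotated exons and had 11 CpG and none of the 5 motifs. Matches describe letters in a window and were not tested against expression.

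**Figure D1:**
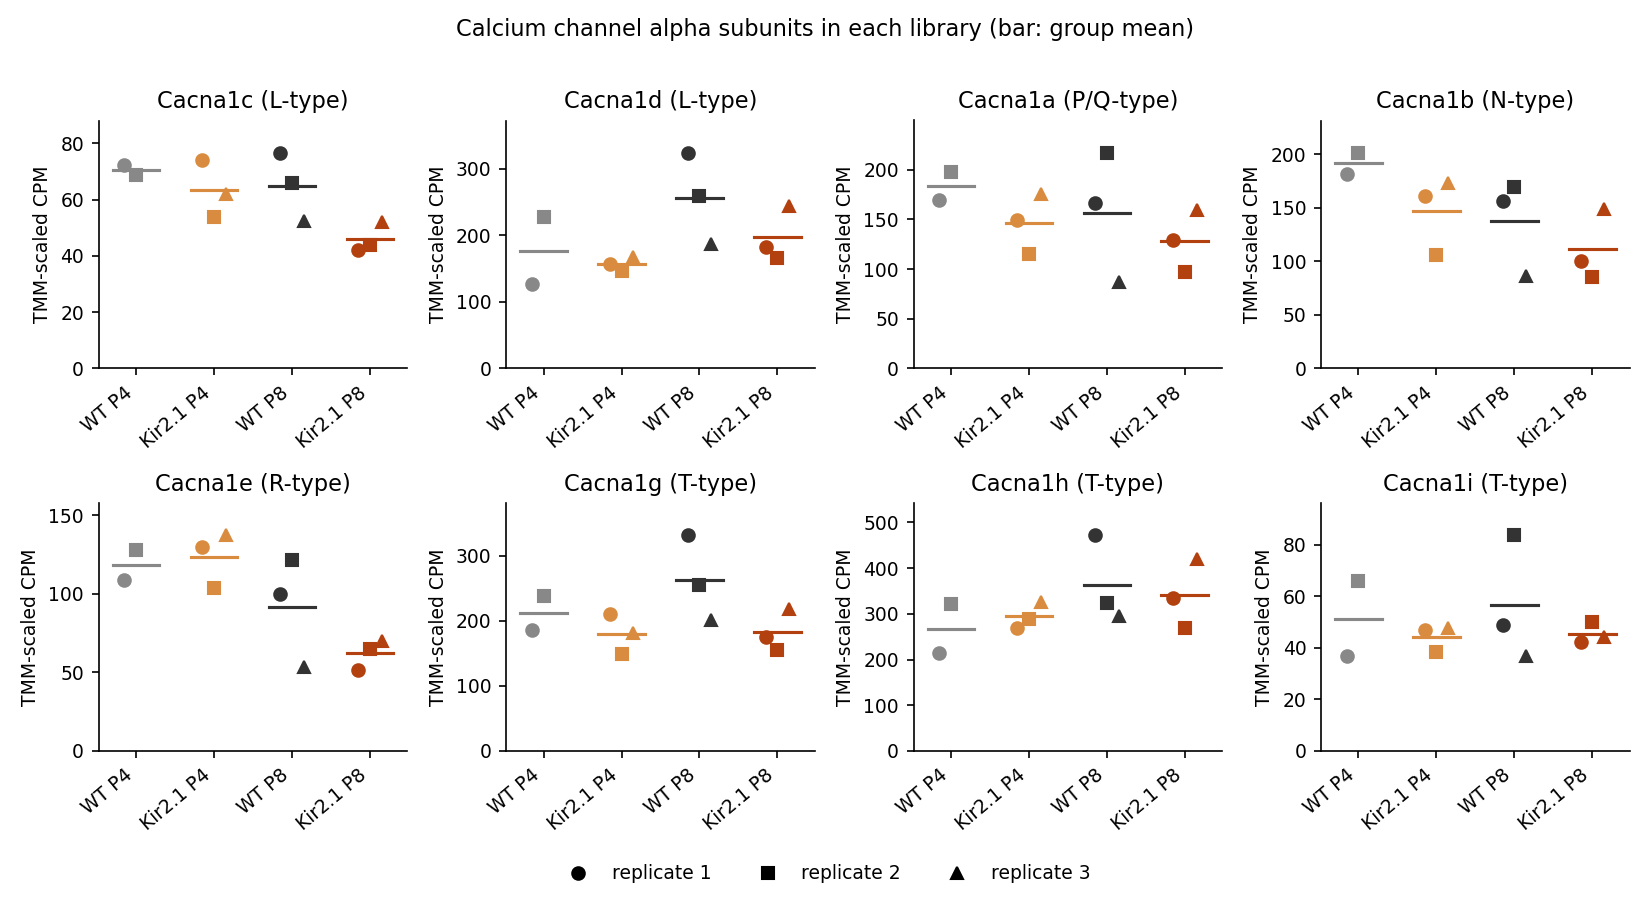
TMM-scaled CPM (vertical axis, from 0) of each of the 8 calcium channel alpha subunits in each of the 11 libraries, by group, with a bar at the group mean. Wild-type P8 replicate 3 is the lowest wild-type P8 library for all 8 genes, and the Kir2.1 P8 values of Cacna1e (51.8 to 69.7 CPM) lie below every Kir2.1 P4 value (104 to 137).

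Per kilobase of annotated exon, the T-type gene Cacna1h had the highest level and the L-type gene Cacna1c the lowest. Over the 11 libraries, mean levels were 32.9 CPM per kb for Cacna1h, 20.6 for Cacna1g, 15.7 for Cacna1d, 14.4 for Cacna1b, 13.2 for Cacna1a, 4.99 for Cacna1i, 3.85 for Cacna1e and 2.85 for Cacna1c. Cacna1h exceeded Cacna1g in 11 of 11 libraries, Cacna1g exceeded Cacna1d in 11, and Cacna1a exceeded Cacna1i in 11. This order pools groups. Within groups, Cacna1d was in the fifth place at P4, below Cacna1b and Cacna1a, in wild type (14.0 against 19.3 and 16.1) and in Kir2.1 (12.4 against 14.8 and 12.8), and in the third at P8 (20.3 and 15.6 in wild type and Kir2.1). Cacna1e (4.90) was above Cacna1i (4.49) in Kir2.1 P4. Over all libraries, the neighbours Cacna1d and Cacna1b kept that order in 7 libraries, Cacna1b and Cacna1a in 9, Cacna1i and Cacna1e in 7, and Cacna1e and Cacna1c in 10, and the ranges of each of these pairs overlapped. Per kilobase of the longest transcript, the means over all libraries put Cacna1h (39.0) and Cacna1g (24.9) first, then Cacna1d (20.6), which exceeded Cacna1a (19.1) in 6 of 11 libraries. Cacna1a was above Cacna1d at P4 (23.2 against 18.3 in wild type and 18.5 against 16.2 in Kir2.1). Cacna1a came before Cacna1b (14.7), and Cacna1e (6.51) before Cacna1i (5.03) and Cacna1c (4.58). Within groups, Cacna1i (4.64) was above Cacna1e (4.17) in Kir2.1 P8, and Cacna1c was above Cacna1i at P4 (5.37 against 5.25 in wild type and 4.80 against 4.53 in Kir2.1). The order among the lower genes thus depends on which length is used.

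On the exon-length scale, the 3 T-type genes together held 46.3% to 49.6% of the summed level of the 8 genes in wild type P4, 50.7% to 55.2% in Kir2.1 P4, 50.8% to 60.1% in wild type P8 and 56.2% to 58.3% in Kir2.1 P8. The P/Q-, N- and R-type genes held 33.6% to 39.5%, 28.6% to 34.6%, 20.6% to 31.2% and 23.8% to 25.9% in the same order. The L-type genes held 14.2% to 16.8%, 14.7% to 16.2%, 18.0% to 19.6% and 17.1% to 18.3%. The T-type and L-type shares at P8 lay above those at P4, and the P/Q-, N- and R-type share below, with no overlap within either genotype. A share falls when another class rises, so these are 1 pattern and not 3, and they carry no test.

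**Figure D2:**
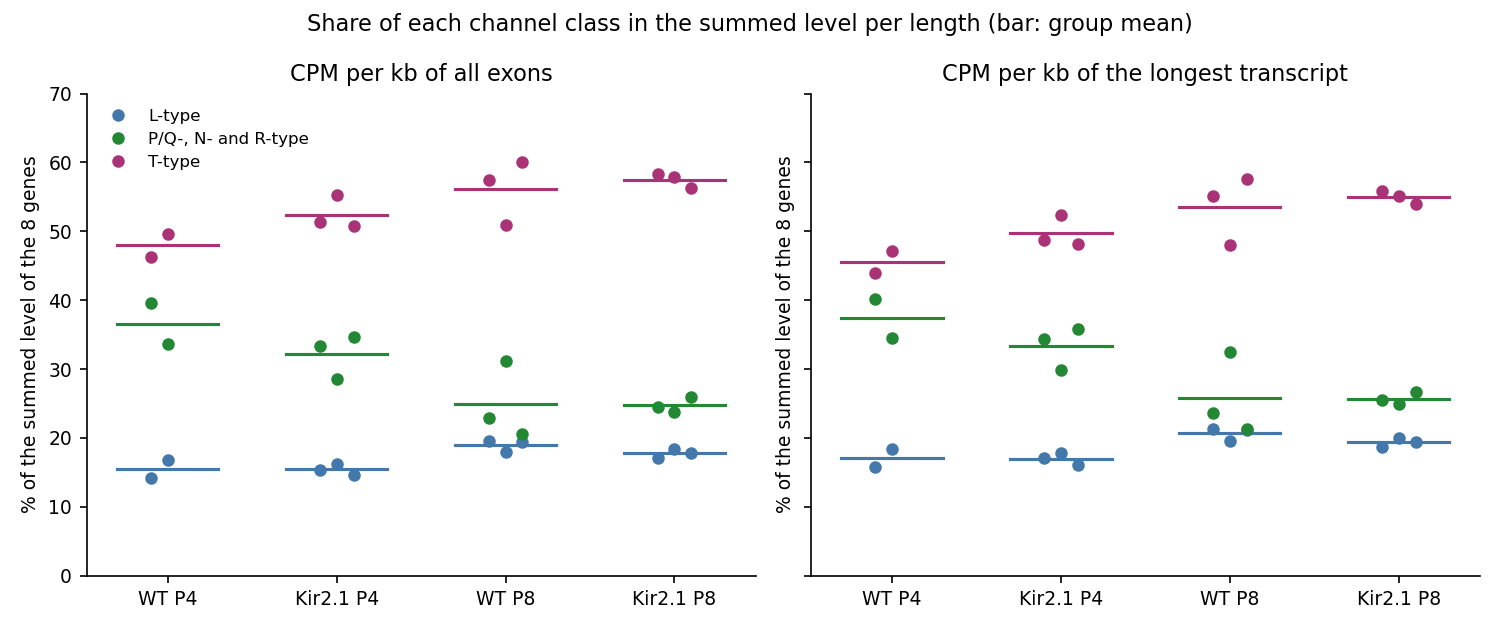
Share of each channel class in the summed level of the 8 genes (vertical axis, percent), by group, with levels per kb of all exons on the left and per kb of the longest transcript on the right; points are libraries and bars group means. In both panels the T-type share is the highest, with group means on exon length of 48.0% in wild type P4, 52.4% in Kir2.1 P4, 56.1% in wild type P8 and 57.5% in Kir2.1 P8.

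Among the L-type genes, Cacna1c encodes Cav1.2, the L-type pore of heart, smooth muscle and most neurons. Its level was 72.4 and 68.9 CPM in wild type P4, 74.0, 53.8 and 61.9 in Kir2.1 P4, 76.6, 65.9 and 52.4 in wild type P8, and 42.0, 43.8 and 52.0 in Kir2.1 P8. The 3 Kir2.1 P8 libraries lay below all the others, by a narrow margin against wild-type P8 replicate 3. The log2 fold change of Kir2.1 against wild type at P8 was -0.50 ± 0.16 (SE; 95% interval -0.85 to -0.15; adjusted p = 0.699), which did not pass after adjustment. At P4 it was -0.16 ± 0.18 (adjusted p = 0.853).

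Cacna1d encodes Cav1.3, an L-type pore that opens at less positive potentials and serves sensory and pacemaking cells. It was at 126 and 227 CPM in wild type P4, 157, 146 and 168 in Kir2.1 P4, 324, 258 and 188 in wild type P8, and 182, 165 and 244 in Kir2.1 P8. The groups overlapped in both genotype comparisons, and the wild-type P4 pair spanned all 3 Kir2.1 P4 values. Its log2 fold change with Kir2.1 was -0.17 ± 0.26 at P4 (adjusted p = 0.891) and -0.38 ± 0.23 at P8 (adjusted p = 0.708).

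Cacna1a encodes Cav2.1, the P/Q-type pore of fast synapses. It was at 169.5 and 198 CPM in wild type P4, 149, 115 and 176 in Kir2.1 P4, 166, 217 and 87.0 in wild type P8, and 129, 97.4 and 160.0 in Kir2.1 P8. Wild-type P8 held both the highest and the lowest library of the 11. The log2 fold change with Kir2.1 was -0.32 ± 0.31 at P4 (adjusted p = 0.829) and -0.28 ± 0.28 at P8 (adjusted p = 0.807).

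Cacna1b encodes Cav2.2, the N-type pore, which supplies release at many young synapses. It was at 181.5 and 201 CPM in wild type P4, 161, 106.5 and 173 in Kir2.1 P4, 156, 169 and 86.7 in wild type P8, and 100.2, 85.5 and 149 in Kir2.1 P8. Both wild-type P4 libraries were above all the others. With Kir2.1, its log2 fold change was -0.38 ± 0.29 at P4 (adjusted p = 0.781) and -0.30 ± 0.27 at P8 (adjusted p = 0.783).

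Cacna1e encodes Cav2.3, the R-type pore, found in dendrites and at some release sites. It was at 109 and 128 CPM in wild type P4, 129.9, 104 and 137 in Kir2.1 P4, 99.96, 121 and 53.7 in wild type P8, and 51.8, 65.0 and 69.7 in Kir2.1 P8. All 3 Kir2.1 P8 libraries and wild-type P8 replicate 3 lay below the other 7 libraries. The log2 fold change with Kir2.1 was 0.06 ± 0.27 at P4 (adjusted p = 0.965) and -0.56 ± 0.24 at P8 (95% interval -1.09 to -0.03; adjusted p = 0.699).

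The T-type gene Cacna1g encodes Cav3.1. It was at 185 and 237 CPM in wild type P4, 210.3, 149 and 182 in Kir2.1 P4, 331, 255 and 201 in wild type P8, and 174, 155.5 and 218 in Kir2.1 P8. At P8 the highest Kir2.1 library exceeded the lowest wild-type library, so the groups overlapped. Its log2 fold change with Kir2.1 was -0.23 ± 0.22 at P4 (adjusted p = 0.828) and -0.52 ± 0.20 at P8 (95% interval -0.95 to -0.09; adjusted p = 0.699).

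Cacna1h encodes Cav3.2, the T-type pore that nickel blocks at low concentration. It was at 213 and 321 CPM in wild type P4, 269, 289 and 325 in Kir2.1 P4, 472, 323 and 296 in wild type P8, and 335, 269 and 419 in Kir2.1 P8. The genotypes overlapped at both ages. The log2 fold change with Kir2.1 was 0.14 ± 0.24 at P4 (adjusted p = 0.903) and -0.09 ± 0.21 at P8 (95% interval -0.55 to 0.36; adjusted p = 0.932).

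Cacna1i encodes Cav3.3, the slowest T-type pore. It was at 36.9 and 65.7 CPM in wild type P4, 47.1, 38.2 and 47.5 in Kir2.1 P4, 48.8, 83.6 and 36.9 in wild type P8, and 42.2, 50.1 and 44.0 in Kir2.1 P8. At each age the Kir2.1 values lay within the wild-type range. Its log2 fold change with Kir2.1 was -0.21 ± 0.30 at P4 (adjusted p = 0.884) and -0.31 ± 0.27 at P8 (adjusted p = 0.781).

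Over the family at P4, 0 of 8 genes passed, as did 0% of all genes tested, and 0 of 8 had an unadjusted p under 0.05, against 7.22% of all genes. The DESeq2 test also called 0 of 8, beside 0.187% of all genes. Of the 8, only Cacna1b had groups that did not overlap, against 26.7% of all genes. Fold changes were below 0 for 6 of 8 and their median was -0.19, beside 0.01 over all genes, of which 51.3% were above 0. The signs of some genes rest on the wild-type pair. Without wild-type P4 replicate 2 the fold changes of Cacna1d, Cacna1h and Cacna1i became 0.32, 0.47 and 0.26, and without replicate 1 they became -0.54, -0.13 and -0.57. Cacna1a, Cacna1b, Cacna1c and Cacna1g stayed below 0 in all 11 fits that left out 1 library.

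At P8, the fitted fold change was below 0 for 8 of 8 genes, from -0.56 for Cacna1e to -0.09 for Cacna1h. Their median was -0.35 beside 0.003 over all genes, of which 50.5% were above 0. The edgeR and DESeq2 tests each called 0 of 8, beside 0% of all genes by edgeR and 0.0165% by DESeq2. Unadjusted p was under 0.05 for 3 of 8 (Cacna1c, Cacna1e and Cacna1g) against 6.82% of all genes, and Cacna1c was the only gene of the 8 whose groups did not overlap, against 10.6% of all genes. Wild-type P8 replicate 3 lay within the Kir2.1 P8 range for 5 of 8 genes, and its rod marker sum (5019 CPM) was near that of the Kir2.1 P8 libraries (4471 to 4853). Its amacrine, Mueller glia, vascular and microglia sums lay within the Kir2.1 P8 range. Its bipolar sum (804 against 432 to 607) lay above that range. Its cone (236 against 333 to 433), ganglion (71.9 against 102 to 148), horizontal and dividing-cell sums lay below. With wild-type P8 replicate 3 left out, Cacna1e passed, with a log2 fold change of -0.83 (adjusted p = 0.0423), in a fit that called 1.21% of all genes. In that fit Cacna1c reached -0.63 (adjusted p = 0.0612) and Cacna1g -0.68 (adjusted p = 0.0735). Without wild-type P8 replicate 1 the Cacna1c and Cacna1g values fell to -0.37 and -0.32, and Cacna1h turned to 0.14. Without wild-type P8 replicate 2 Cacna1a and Cacna1i turned to 0.025 and 0.083 and Cacna1e was at -0.30, and without Kir2.1 P8 replicate 2 Cacna1h was at 0.052. Fitted with no filter on low counts, Cacna1e (-0.57, adjusted p = 0.0221) and Cacna1g (-0.52, adjusted p = 0.0200) passed, beside 1.22% of all genes.

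The genotype effects at P8 and P4 were compared directly in the same model. No subunit passed the test of that difference in edgeR or in DESeq2 (0 of 8 called, beside 0% of all genes), and 0 of 8 had an unadjusted p under 0.05, against 3.09% of all genes. The widest difference among the 8 was that of Cacna1e, at -0.62 ± 0.36 on the log2 scale (95% interval -1.41 to 0.17).

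The authors' deposited table gives other calls for the same comparisons. At P4 the authors' deposited table calls 0 of 8 at an adjusted p under 0.05, beside 2.27% of its genes, with Cacna1b nearest at -0.65 (adjusted p = 0.0770). The 8 range there from -0.65 for Cacna1b to -0.25 for Cacna1e, so none is above 0. Cacna1e and Cacna1h (-0.37) thus have the opposite sign to the edgeR fit (0.06 and 0.14). At P8 the authors' deposited table calls 3 of 8 lower, beside 7.27% of its genes in either direction: Cacna1e at -0.87 (adjusted p = 0.00155), Cacna1g at -0.70 (adjusted p = 0.00914) and Cacna1d at -0.57 (adjusted p = 0.0446). In the authors' deposited table for P8 the other 5 range from -0.57 for Cacna1i to -0.21 for Cacna1h. Which libraries entered the authors' deposited tables is not stated in the sources used here.

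**Figure D3:**
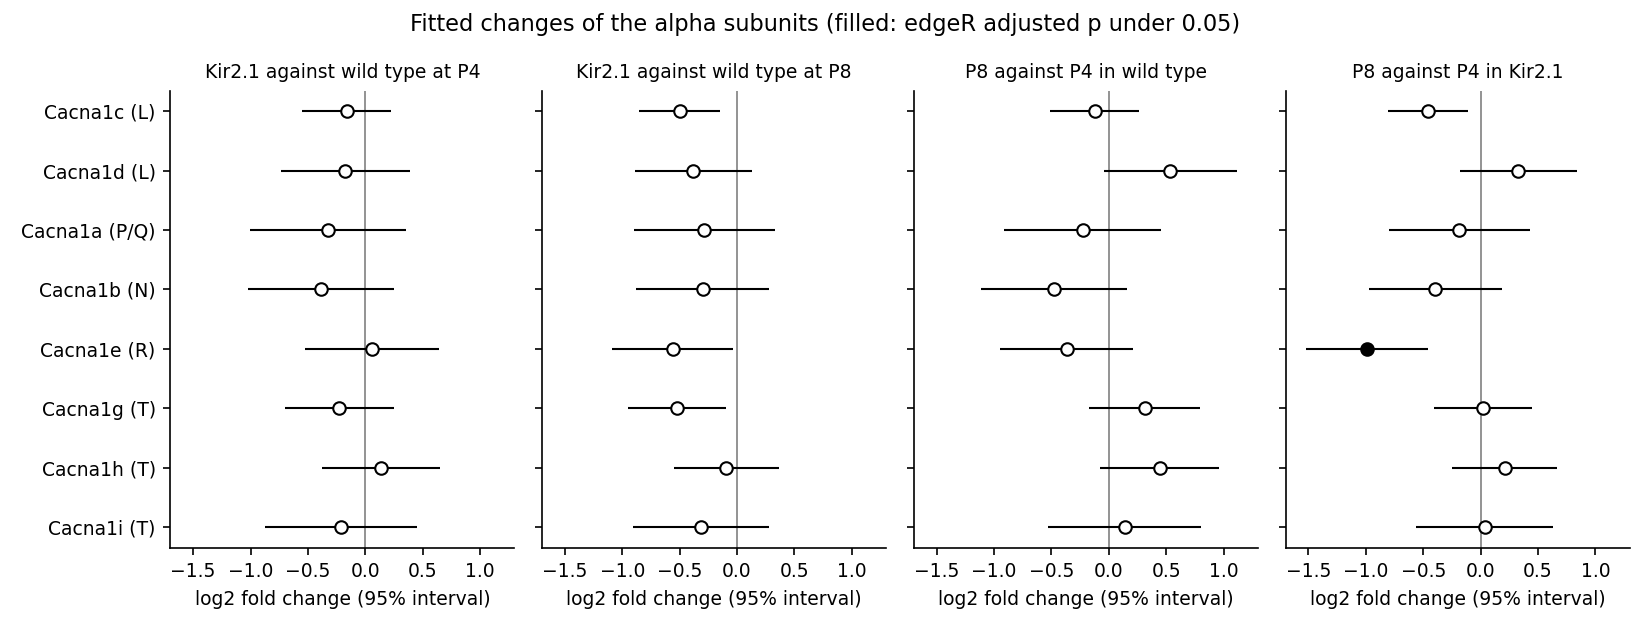
Log2 fold changes (horizontal axis) of the 8 alpha subunits with 95% intervals, 1 panel per comparison; filled points have an edgeR adjusted p under 0.05. Cacna1e in Kir2.1 between P4 and P8 (-0.99) is the only filled point.

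Between P4 and P8, the R-type gene Cacna1e fell in the Kir2.1 libraries and no subunit passed in wild type. In Kir2.1, Cacna1e went from 129.9, 104 and 137 CPM to 51.8, 65.0 and 69.7, with no overlap, a log2 fold change of -0.99 ± 0.24 (95% interval -1.52 to -0.46; adjusted p = 0.0159) or 0.503 of the P4 level. It was the 1 gene of 8 called, beside 16.7% of all genes in either direction (7.93% higher and 8.73% lower), a share near the background. Unadjusted p was under 0.05 for 2 of 8 (Cacna1c and Cacna1e) against 29.7% of all genes, and the same 2 had groups that did not overlap, against 38.1%. Cacna1c was at -0.46 ± 0.16 on the log2 scale (adjusted p = 0.0736). The other 6 lay between -0.39 for Cacna1b and 0.33 for Cacna1d. Beside this, dividing-cell markers went from 1972 to 2525 CPM at P4 to 94.1 to 130.1 at P8 in Kir2.1, rod markers from 321 to 516 up to 4471 to 4853, and ganglion markers from 178 to 556 down to 102 to 148. The part of these sums in the Cacna1e result was not tested.

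The Cacna1e call depended on single libraries. Leaving out each of the 11 in turn gave fold changes from -1.11 to -0.88, and 8 of the 11 fits called it. The call was lost without Kir2.1 P4 replicate 1 (-0.98, adjusted p = 0.0528), without Kir2.1 P4 replicate 3 (-0.91, adjusted p = 0.0579) and without Kir2.1 P8 replicate 1 (-0.88, adjusted p = 0.0659), fits that called 9.76%, 11.5% and 11.5% of all genes. Cacna1c passed in the same comparison without wild-type P8 replicate 1 (adjusted p = 0.0413), without wild-type P8 replicate 3 (adjusted p = 0.0354) and when only the Kir2.1 libraries were fitted (adjusted p = 0.0309), fits that called 19.1%, 20.4% and 25.8% of all genes.

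In wild type, edgeR and DESeq2 each called 0 of 8 between P4 and P8, beside 4.39% of all genes by edgeR (0.803% higher and 3.58% lower) and 8.49% by DESeq2, and 0 of 8 had an unadjusted p under 0.05, against 19.6% of all genes. Cacna1b, at -0.48 ± 0.29 (adjusted p = 0.420), was the 1 gene of 8 with groups that did not overlap, against 31.1% of all genes. The L-type gene Cacna1d had the highest fold change, 0.54 ± 0.26 (adjusted p = 0.294), which ranged from 0.17 without wild-type P4 replicate 1 to 1.03 without wild-type P4 replicate 2. The T-type genes were at 0.44 ± 0.24 for Cacna1h (adjusted p = 0.343), 0.31 ± 0.22 for Cacna1g (adjusted p = 0.499) and 0.14 ± 0.31 for Cacna1i (adjusted p = 0.858). Cacna1e was at -0.37 ± 0.27 (95% interval -0.95 to 0.21; adjusted p = 0.511), and -0.10 without wild-type P8 replicate 3. That Cacna1e passed in Kir2.1 and not in wild type does not show that the age changes differed: their difference was -0.62 ± 0.36, which did not pass.

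**Figure D4:**
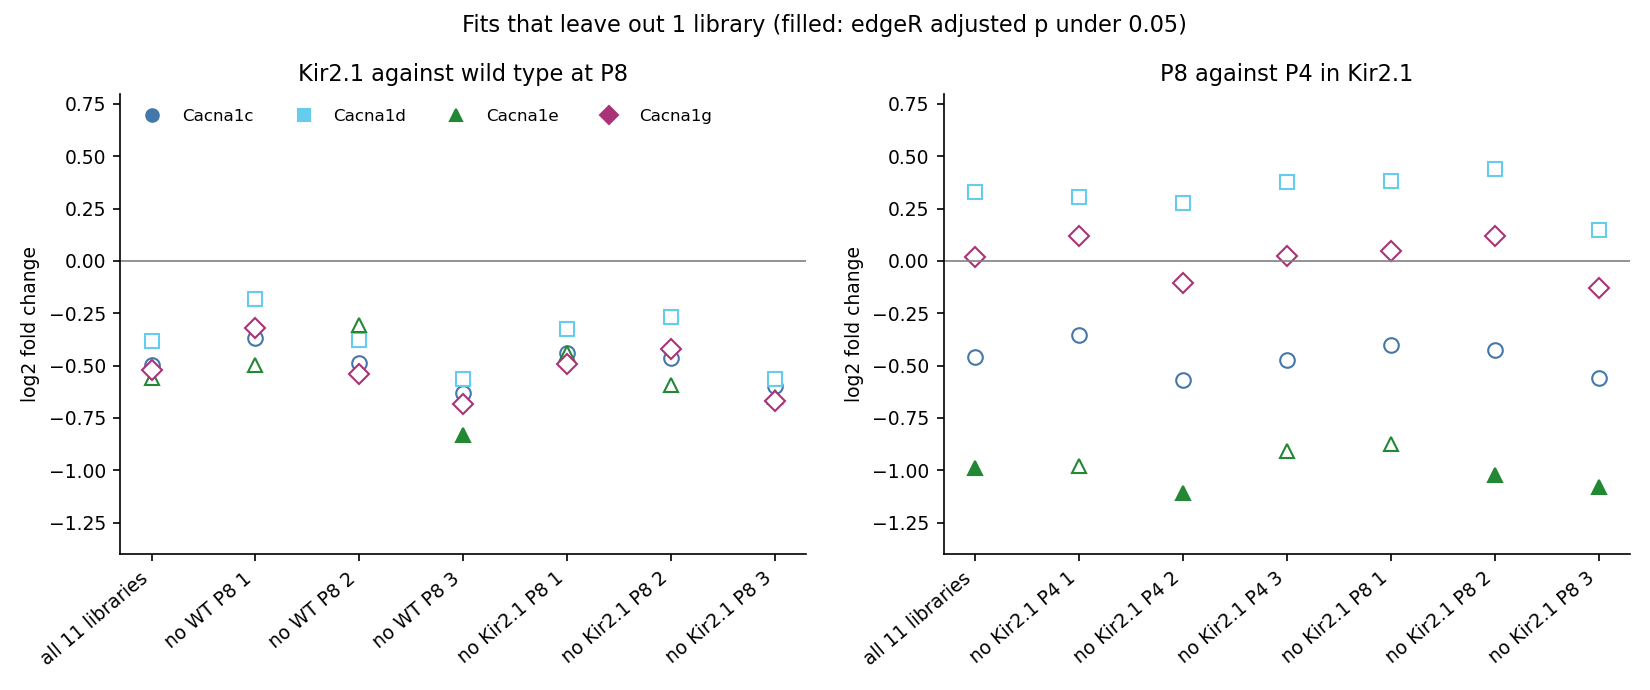
Log2 fold changes (vertical axis) of Cacna1c, Cacna1d, Cacna1e and Cacna1g in the fit to all 11 libraries and in fits that leave out 1 library of the groups compared, for Kir2.1 against wild type at P8 (left) and P8 against P4 in Kir2.1 (right); filled points have an edgeR adjusted p under 0.05. On the left only Cacna1e without wild-type P8 replicate 3 is filled (-0.83), and on the right Cacna1e stays between -1.11 and -0.88 but is open in 3 of the 6 fits that leave out a library.

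Around the 8 subunits, 34 further genes of channel subunits, modulators and tethers were listed, of which 32 passed the filter and Cacng6 and Rem1 did not. They are the remaining alpha1 genes with counts to test (Cacna1f and Cacna1s), the beta subunits that carry the pore to the membrane, the alpha2delta subunits that raise its surface level, the gamma subunits, and modulators and tethers such as calmodulins, calcium-binding proteins and RIM proteins. With Kir2.1 the test called 0 of 32 at P4 and 0 of 32 at P8, with median fold changes of -0.19 and -0.28. With no filter on low counts 5 and 6 of those listed were called, beside 0.928% and 1.22% of all genes. Those below 0 numbered 24 of 32 at P4 and 23 of 32 at P8. Of all genes, 51.3% and 50.5% were above 0, with medians of 0.01 and 0.003. The test of the difference between ages called 0 of 32. These counts of 0 stand beside 0% of all genes in each of the 3 comparisons. With no filter the difference between ages was called for 1 of those listed (0.372% of all genes). Leaving out the wild-type P8 library 3 gave 1 called at P8 (1.21% of all genes). The authors' deposited table gives other calls at an adjusted p under 0.05. At P4 these include Cacng5 (-1.33) and Rims1 (-0.98), beside 2.27% of its genes. At P8 they include Cacnb4 (-0.89), Cacna2d2 (-0.66), Cacng8 (-1.12) and Calm3 (-0.52) lower, beside 7.27% of its genes. Cabp4 (1.48) and Cacnb2 (0.82) are called higher there.

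With age in Kir2.1, 12 of the 32 passed, 9 higher and 3 lower, beside 16.7% of all genes. DESeq2 called 13 of those listed (20.7% of all genes), and the fit with no filter called 17 (10%). With only the Kir2.1 libraries 16 were called (25.8%). Leaving out the Kir2.1 P4 libraries 1, 2 and 3 in turn gave 5, 8 and 6 called, and leaving out those of Kir2.1 P8 gave 6, 7 and 7, in fits that called 9.76% to 12% of all genes. By family the 12 were 1 of 2 alpha1 genes higher, 1 of 4 beta genes higher and 1 lower, and 2 of 4 alpha2delta genes higher. They held 0 of 7 gamma genes, and 5 of 15 modulators and tethers higher and 2 lower. Among those with the widest changes were Cabp4 (4.62, adjusted p = 0.00402), which tunes photoreceptor channels, Cabp2 (2.95, adjusted p = 0.0261), a calcium-binding protein, Cacna2d4 (2.23, adjusted p = 0.0101), the alpha2delta subunit of photoreceptors, Cacna1f (1.98, adjusted p = 0.00755), the L-type pore of photoreceptors and bipolar cells, and Cacnb2 (1.83, adjusted p = 0.00796), a beta subunit of ribbon synapses. The changes of Cabp4 and Cabp2 started from few counts, so their sizes are loosely set (95% intervals 2.72 to 6.52 and 1.20 to 4.69). Cabp4 had 2, 5 and 8 counts in the Kir2.1 P4 libraries and 116, 96 and 140 in Kir2.1 P8. Cabp2 had 10, 4 and 1 counts in Kir2.1 P4 and 41, 36 and 35 in Kir2.1 P8. The 3 of the 12 that fell were Rimbp2 (-0.66), Cacnb3 (-0.58) and Calm2 (-0.56), named here after their values were seen. In wild type, Cabp1 (0.54, adjusted p = 0.0383) was the 1 of 32 called, beside 4.39% of all genes. DESeq2 called 4 of those listed (8.49% of all genes), and the fit with no filter called 12 (5.63%). The count was 0 when only the wild-type libraries were fitted (0.666% of all genes). It was also 0 without Kir2.1 P4 replicate 1 or 3, or without any 1 Kir2.1 P8 library (3.63% to 3.86%). Leaving out wild-type P4 libraries 1 and 2 in turn gave 0 and 10 called, and leaving out those of wild-type P8 (1, 2 and 3) gave 5, 0 and 3. Those fits called 0.823%, 6.76%, 7.19%, 2.97% and 4.53% of all genes.

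Cacna1f was at 19.2 and 63.6 CPM in wild type P4, 31.2, 42.2 and 41.7 in Kir2.1 P4, 54.9, 129 and 176 in wild type P8, and 135, 162 and 156 in Kir2.1 P8. The Kir2.1 ages did not overlap, while wild-type P8 replicate 1 (54.9) lay below wild-type P4 replicate 2 (63.6). Those libraries held 535 and 850 CPM of rod markers, against 148 in wild-type P4 replicate 1 and 2154 and 5019 in the other wild-type P8 libraries. The part of rod content in the Cacna1f values was not tested.

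**Figure D5:**
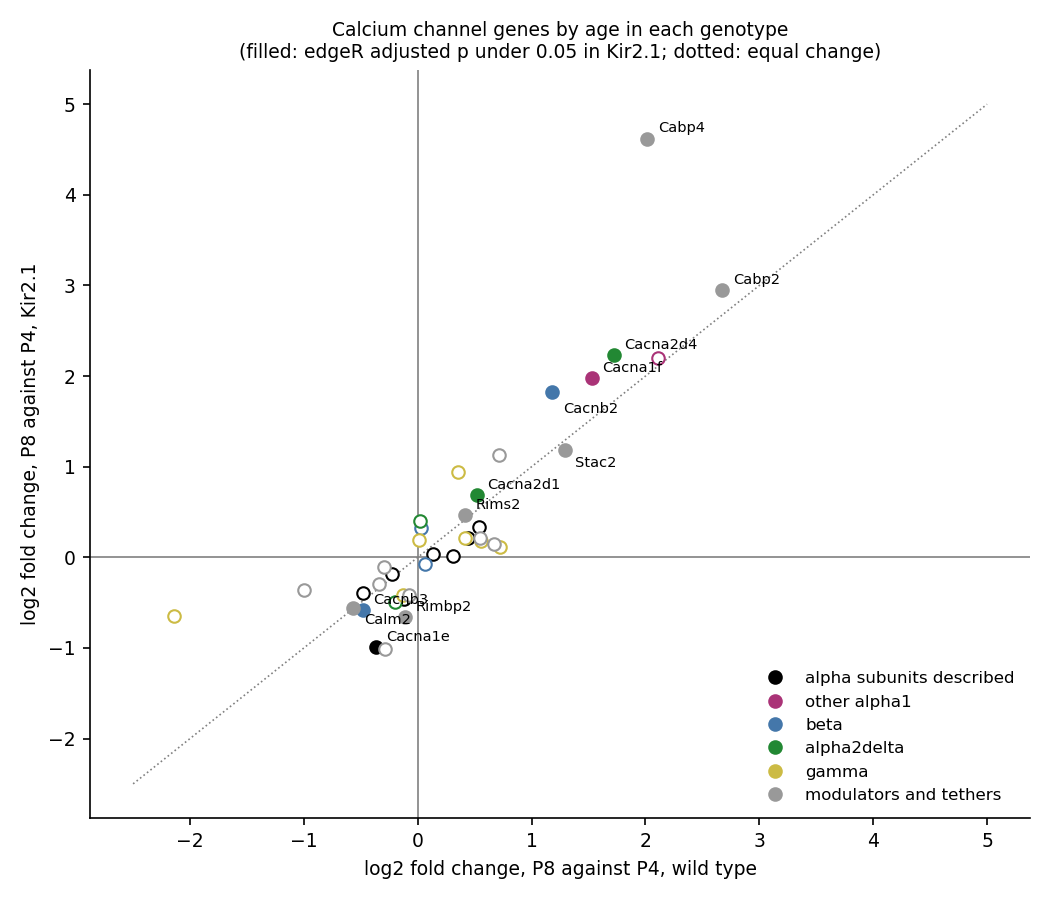
Log2 fold change with age in wild type (horizontal axis) and in Kir2.1 (vertical axis) for the 8 alpha subunits and other channel subunits, modulators and tethers tested. Filled points have an edgeR adjusted p under 0.05 in Kir2.1, and the dotted line marks equal change. Cabp4, Cabp2, Cacna2d4, Cacna1f and Cacnb2 lie at the upper right, while the 8 alpha subunits lie between -0.99 and 0.54 on both axes.

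Genes whose log2 CPM followed each subunit most closely over the 11 libraries were taken from 12192 candidates with a mean of at least 5 CPM. The libraries differ in age and cell content, which all pairs share, so the coefficients are descriptions. For Cacna1e they were Sntg1 (Pearson r = 0.985), Fgd6 (0.984) and Col6a1 (0.974). For Cacna1d they were Galnt17 (r = 0.983), Iqsec3 (0.976) and Trank1 (0.972), and for Cacna1c Dst (r = 0.948), Erc1 (0.946) and St3gal2 (0.944). For Cacna1a they were Tgfa (r = 0.959), Prune2 (0.952) and Ppfibp1 (0.950), and for Cacna1b Trim67 (r = 0.971), Gabbr2 (0.961) and again Prune2 (0.958). Among the T-type genes, Cacna1g was followed by Dtd1 (r = 0.968) and Mapk8ip3 (0.967), Cacna1h by Otud7a (r = 0.964), Nr3c2 (0.937) and Gfra1 (0.933), and Cacna1i by Gas7 (r = 0.964), Tacr1 (0.913) and Arap2 (0.905). Prune2 was the 1 gene named here for more than 1 subunit.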

How the data were processed

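RNA of dissociated retina was sequenced in 11 libraries. The authors deposited 1 table of whole-number counts per Ensembl gene for each library, with 6 lines outside genes (74.6% to 79.8% of records) that were left out. The submitters' processing notes name cutadapt 1.18, STAR 2.5.0c, SAMtools 1.9, bedtools 2.26.0, HTSeq 0.6.1, DESeq2 and mm10, with no order. Annotation and strand setting are not given in the sources used here. The authors also deposited a table of their own comparison at each age, which per the file headers holds per gene a mean signal, its log2 change and the error of that change, a test score, and a p-value before and after adjustment.

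Group, age and replicate came from sample titles. Counts were fitted with edgeR 4.0.16 (limma 3.58.1, R 4.3.3): filterByExpr by group kept 18188 of 47069 genes, TMM factors were 0.964 to 1.05, and 4 group means were fitted together (common coefficient of variation between libraries 0.247; degrees of freedom 7 residual and 5.05 prior). SE is the absolute log2 fold change over the square root of F. p-values were adjusted by Benjamini-Hochberg over all tested genes, threshold 0.05. The fit was also run on simulated counts that spread less between libraries than these data, so that run does not measure its power here. Symbols matched 46488 of the identifiers. Lengths and coordinates came from GENCODE M21 by identifier.

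The rule that names the 8 genes uses no measured value, but it, the lists and the tests were set with earlier results of these data known. All 8 genes were to be named, with, per comparison, up to 6 called genes of the channel list by size of change, and the 3 genes most correlated with each subunit (log2 CPM, prior count 2); some of these genes are not reported here. Alternatives were DESeq2 size factors, the DESeq2 1.42.0 test, no filter, a minimum mean level (1 CPM), leaving out genes that take over 1% of a library, only the groups compared, a replicate block, leaving out each library, and another gene length. Depth was 9362215 to 12478838 gene counts per library.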

Additional observations from a re-analysis of the deposited data

How the results depend on the processing

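With no filter on low counts, the number of the 8 subunits called was 2 for Kir2.1 against wild type at P8 (Cacna1e and Cacna1g; 1.22% of all genes) and 2 for P8 against P4 in wild type (Cacna1d at 0.53, adjusted p = 0.0170; Cacna1b at -0.48, adjusted p = 0.0474; 5.63% of all genes). With only the libraries of the groups compared it was 2 for P8 against P4 in Kir2.1 (Cacna1c and Cacna1e), beside 25.8% of all genes. The cause was not tested. Leaving out 1 library gave 0 to 1 called at P8 by genotype (1 without wild-type P8 replicate 3, beside 1.21% of all genes), 0 to 2 with age in Kir2.1 (9.76% to 20.4% of all genes), and 0 in each such fit of the other 3 comparisons (0.823% to 7.19% of all genes with age in wild type, at most 0.0303% in the other two). Other settings moved no fold change of the 8 genes across 0.

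Leaving out 1 library turned the sign in some fits, over these ranges of log2 fold change. By genotype at P4 they were -0.54 to 0.32 for Cacna1d, -0.055 to 0.19 for Cacna1e, -0.13 to 0.47 for Cacna1h and -0.57 to 0.26 for Cacna1i. By genotype at P8 they were -0.57 to 0.025 for Cacna1a, -0.27 to 0.14 for Cacna1h and -0.54 to 0.083 for Cacna1i. For the difference between ages they were -0.70 to 0.16 for Cacna1d, -0.25 to 0.35 for Cacna1a, -0.18 to 0.26 for Cacna1b, -0.56 to 0.038 for Cacna1h and -0.58 to 0.30 for Cacna1i. With age in wild type they were -0.27 to 0.013 for Cacna1c, -0.54 to 0.062 for Cacna1a and -0.26 to 0.61 for Cacna1i. With age in Kir2.1 they were -0.13 to 0.12 for Cacna1g and -0.062 to 0.091 for Cacna1i. When a wild-type P4 library is left out, the lone one is assumed to vary like the other groups.

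Over all genes, the number called by edgeR at an adjusted p under 0.05 was 0 at P4 and 0 to 339 under other settings, 0 at P8 and 0 to 447, 798 with age in wild type and 113 to 2058, and 3029 with age in Kir2.1 and 2928 to 4264. Leaving out 1 library gave 0 to 6, 0 to 219, 163 to 1339 and 1764 to 3676. Not every pair of same-numbered libraries deviated together (correlations of deviations from -0.0757 to 0.139), so the numbers were not taken to pair samples. With a replicate block the number of the 8 genes called was 0, 0, 0 and 0 for the comparisons by genotype, their difference and age in wild type, and 1 with age in Kir2.1 (Cacna1e at -0.9995, adjusted p = 0.0276), in fits that called 0%, 0%, 0%, 3.07% and 16.1% of all genes. Each of the 8 genes had at least 420 counts in every library, and its fitted coefficient of variation between libraries was 0.152 (Cacna1c) to 0.251 (Cacna1a).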
